A study of Homo sapiens with 4 samples.

Results

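The 33 genes described here carry out purine and pyrimidine nucleotide synthesis, salvage and the supply of DNA building blocks. They were chosen by name, with earlier results of these data known, and each was the single gene whose Ensembl ID maps to that symbol. All 33 had an ID among the 57773 genes listed, and all 33 were among the 16090 genes with enough counts to be tested. The libraries came from polyadenylated RNA of MIA-PaCa2 cells, a line derived from a human pancreatic cancer. The resistant group held 2 libraries, from populations that had been kept in rising AMG510 over 2 months until they grew in 5 µM. The untreated group held 2 libraries of the same line without the drug. AMG510 (sotorasib) is a small-molecule cancer drug. Both groups grew in DMEM with fetal calf serum. For resistant replicate 2, 1 label spells the drug AMG511, while its title says AMG510. The labels do not say whether the drug was in the medium at harvest, whether a population is 1 clone, or whether libraries of a group came from separate cultures. The p-values below therefore measure the spread between these libraries, which may be technical.

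Library depth ranged from 30146559 to 38052558 expected counts, and levels are given as CPM, the count scaled to the depth and composition of its library. A call means an adjusted p below 0.05. With 3 counts as the limit that a count of 0 allows, a gene without counts could lie at up to 0.0801 to 0.104 CPM in a library, which covers counting error only. The epithelial markers KRT8, KRT18, KRT19, EPCAM, CDH1 and KRT7 summed to 2055 and 2620 CPM in resistant libraries, against 5635 and 3956 CPM in untreated libraries, with EPCAM, CDH1 and KRT7 at 2.09 CPM or less in each library. The mesenchymal marker VIM lay between 5575 and 7906 CPM. Of the immune, endothelial, fibroblast and acinar or endocrine markers, none exceeded 8.12 CPM in any library, and PRSS1 and INS had 0 counts in all 4. One endothelial marker, PECAM1, had no ID. PDGFRB, a fibroblast marker, was low but rose, with 5.07 and 2.16 CPM in resistant libraries, against 0.0542 and 0.187 CPM in untreated libraries (adjusted p = 7.69e-04). CD14, a monocyte marker, fell to 1.52 and 1.75 CPM in resistant libraries, against 6.04 and 6.09 CPM in untreated libraries (adjusted p = 0.00263). The part of these genes in the results was not tested. MTAP, a purine salvage enzyme whose gene this line is known to lack, had 1 count in resistant replicate 2 and 0 counts in the other libraries. CDKN2A, its neighbour, had 0 counts in all 4.

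Cells build purine nucleotides step by step on PRPP, an activated ribose phosphate, until the ring of IMP is closed, and then turn IMP into AMP or GMP. Pyrimidines are made the other way round, as a ring that is joined to PRPP afterwards and ends as UMP and CTP. Ribonucleotide reductase removes an oxygen from the sugar to give deoxynucleotides, thymidylate synthase adds a methyl group carried by folate, and salvage enzymes return free bases and nucleosides to the pool. Many of these genes are known to be transcribed by E2F factors at the start of S phase or by MYC during growth.

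In resistant cells 7 of the 8 genes for ribonucleotide reductase, thymidylate supply and deoxynucleotide removal fell, and 2 of the 6 genes of purine synthesis up to IMP did. None of the 3 genes of the guanine branch was called. Of the 33 members 15 fell and 18 were not called, where 17.4% of all tested genes fell. None of the 33 rose, where 16.6% of all tested genes did. The median log2 fold change of the 33 was −0.50, and that of all tested genes was −0.01. The fall was at least 2-fold for 8 members, namely PFAS, DUT, DCTPP1, CTPS1, RRM2, NME1, TYMS and MTHFD1, where 7.55% of all tested genes fell that far. For 24 members both resistant libraries lay below both untreated ones, where this held for 36.3% of all tested genes. For 6 members (TK2, CTPS2, IMPDH1, IMPDH2, GMPS and APRT) both lay above, where this held for 34.6%. In CAD, PRPS2 and ADSL the groups overlapped.

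**Figure D1:**
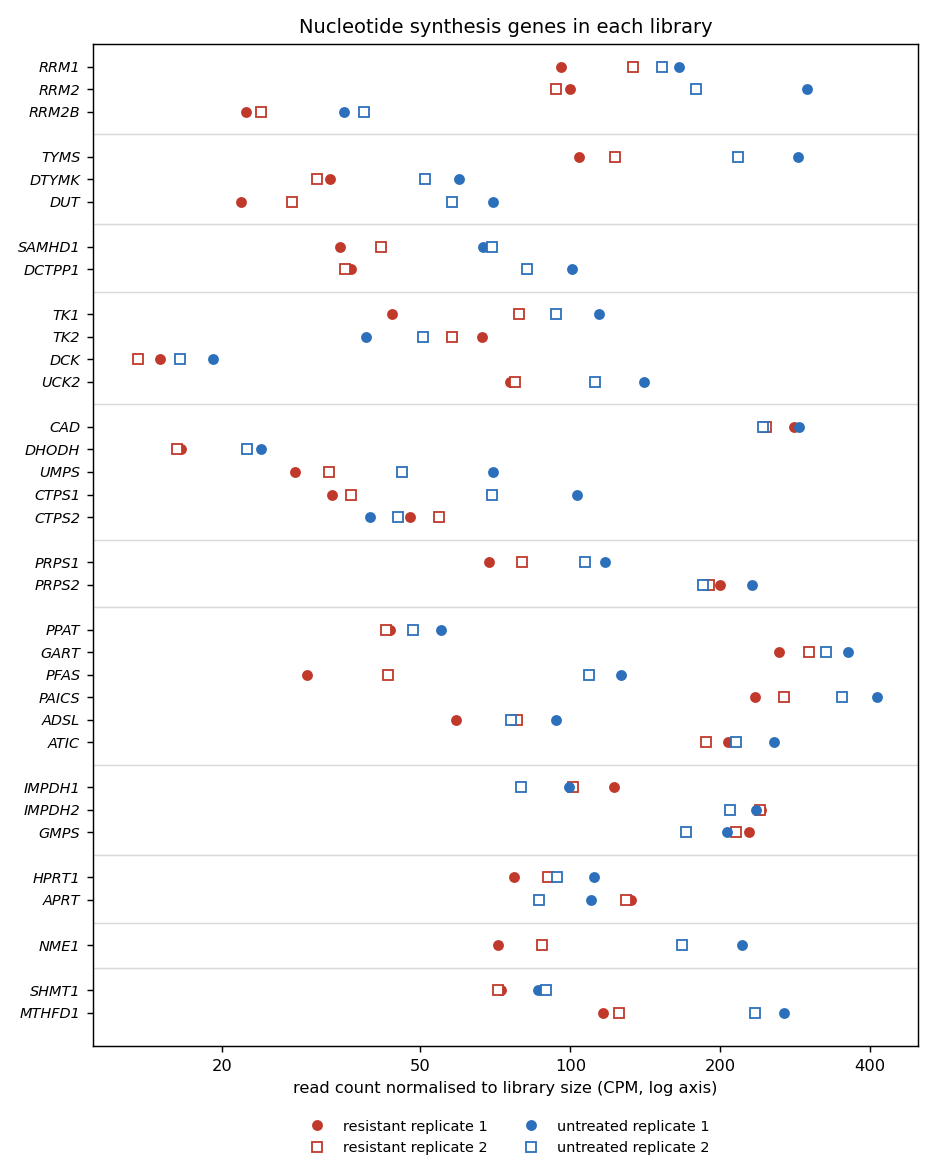
Level of each member in each library, as CPM on a log axis, with resistant libraries in red and untreated ones in blue, and replicate 1 filled and replicate 2 open. Members are grouped by branch, and both red symbols lie left of both blue ones for 24 of the 33.

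**Figure D2:**
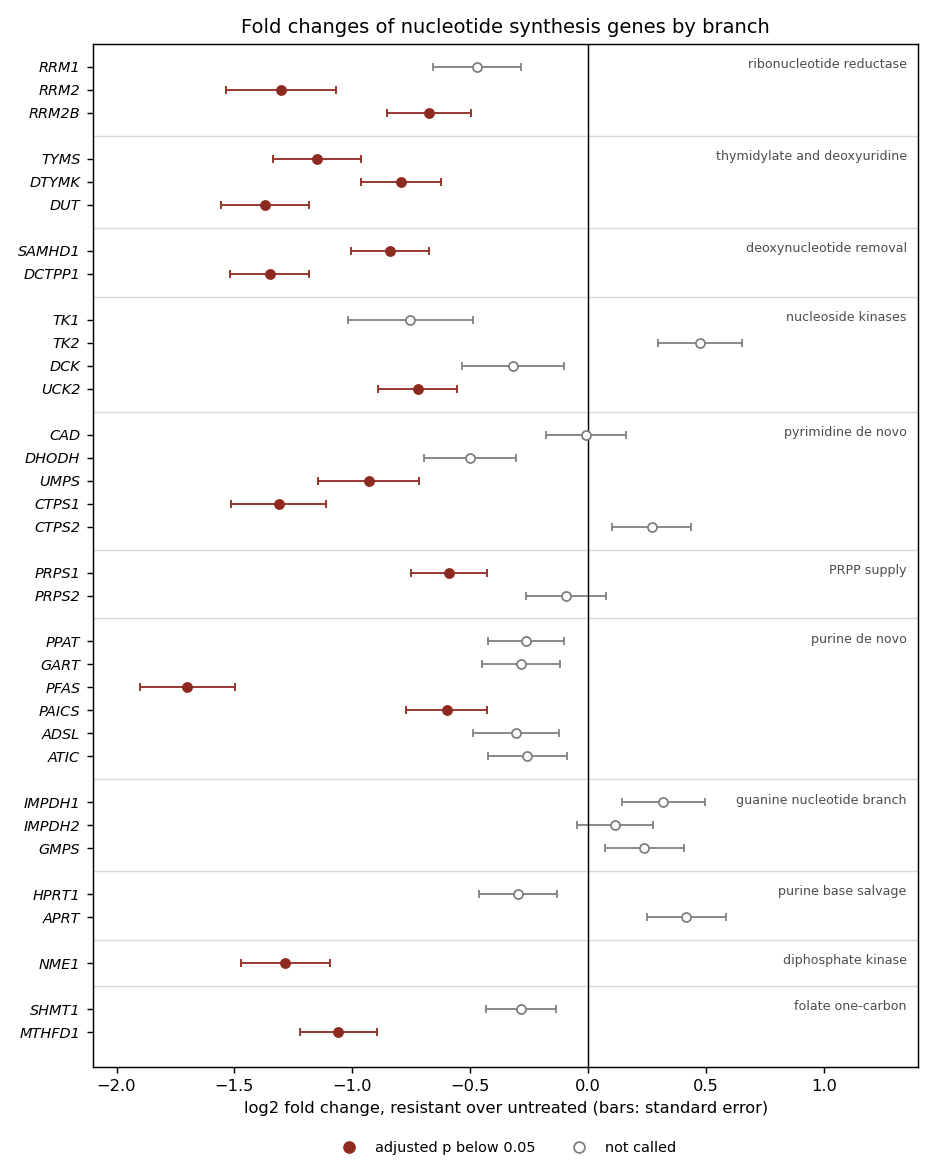
Log2 fold change of each member, resistant over untreated, with its standard error as bars. Filled symbols are the 15 members called at an adjusted p below 0.05, all left of 0, and the 3 genes of the guanine nucleotide branch lie right of 0 without a call.

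Promoter sequences are shown for 5 members, since a promoter carries the sites at which such factors are known to act. RefSeq (GRCh38.p14) gave a promoter window for 30 members, and RRM2B, ADSL and IMPDH2 are named only. The 250 bases before each start were searched on both strands for 3 sets of letters. These were the E2F words TTTCCCGC, TTTCGCGC, TTTGCCGC and TTTGGCGC, the E-box CACGTG to which MYC is known to bind, and the CCAAT box bound by NF-Y. No matches overlapped each other. The build differs from that of the counts (GRCh37), so positions here belong to the sequences alone. The windows shown are RRM2 (chr2:10122489-10122738, plus strand), TYMS (chr18:657403-657652, plus strand), DUT (chr15:48331947-48332196, plus strand), MTHFD1 (chr14:64388103-64388352, plus strand) and PPAT (chr4:56435616-56435865, minus strand). Each runs 5′ to 3′ and ends at the base before the start, and capitals mark the matches. RRM2 and DUT have other annotated starts as well, which were also searched, and that of RRM2 lies inside the window shown. These windows were picked for print, and each of the 5 holds a match, which some other members lack. Of the 4 DUT windows only that shown held a match, and the other RRM2 window held 1 CCAAT box.
RRM2: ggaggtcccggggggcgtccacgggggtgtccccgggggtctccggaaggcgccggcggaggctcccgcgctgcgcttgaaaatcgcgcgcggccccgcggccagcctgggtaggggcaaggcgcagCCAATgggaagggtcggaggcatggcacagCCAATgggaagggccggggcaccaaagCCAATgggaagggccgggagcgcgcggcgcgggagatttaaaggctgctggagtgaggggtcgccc
TYMS: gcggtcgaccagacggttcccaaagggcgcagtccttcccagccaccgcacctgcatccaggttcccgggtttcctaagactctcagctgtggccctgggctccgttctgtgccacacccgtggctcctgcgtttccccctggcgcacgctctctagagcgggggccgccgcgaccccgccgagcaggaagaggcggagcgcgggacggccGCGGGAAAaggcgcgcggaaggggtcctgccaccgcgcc
DUT: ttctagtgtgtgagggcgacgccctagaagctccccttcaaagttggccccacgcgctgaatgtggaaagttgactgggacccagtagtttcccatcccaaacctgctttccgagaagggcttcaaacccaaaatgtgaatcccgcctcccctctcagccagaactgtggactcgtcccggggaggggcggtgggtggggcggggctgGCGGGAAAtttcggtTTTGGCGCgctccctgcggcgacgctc
MTHFD1: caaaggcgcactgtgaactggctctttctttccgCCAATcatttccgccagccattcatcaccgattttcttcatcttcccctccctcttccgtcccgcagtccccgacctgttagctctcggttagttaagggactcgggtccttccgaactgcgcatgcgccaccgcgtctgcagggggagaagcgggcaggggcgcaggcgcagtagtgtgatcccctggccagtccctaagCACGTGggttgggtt
PPAT: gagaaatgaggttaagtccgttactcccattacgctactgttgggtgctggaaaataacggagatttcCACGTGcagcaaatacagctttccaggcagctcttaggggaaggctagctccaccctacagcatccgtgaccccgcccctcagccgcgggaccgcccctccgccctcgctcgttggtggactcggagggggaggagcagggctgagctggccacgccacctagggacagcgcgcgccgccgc
The RRM2 window holds the CCAAT box 3 times, followed each time by gggaaggg. The TYMS window holds 1 E2F word and the DUT window 2, on opposite strands. MTHFD1 has both a CCAAT box and an E-box. The PPAT window holds an E-box. By 1 of its 3 annotated starts PAICS, the gene of a later step of the same pathway, starts 137 bases away in the opposite direction, so the windows of PPAT and PAICS overlap in part. The E-box lies outside the 250 bases searched before each PAICS start.

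An E2F word stood in at least 1 window of 4 of the 30 members, where 3.40% of all genes with windows (27305) and 2.79% of all windows (35116) had one. Of these members DUT and TYMS fell in resistant libraries, and GART and PRPS2 were not called. The E-box stood in 6 of the 30 (7.73% of all genes and 6.34% of all windows), of which DCTPP1 and MTHFD1 fell and ATIC, DCK, DHODH and PPAT were not called. The CCAAT box stood in 13 of the 30 (37.0% of all genes and 32.0% of all windows), of which 7 fell and 6 were not called. Of all 30 members with a window, 14 fell and 16 were not called. A match is a description of the letters in these windows and no evidence of binding.

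Ribonucleotide reductase, the enzyme that makes deoxynucleotides, is built from the large subunit RRM1 and a small subunit, either RRM2 in dividing cells or the p53-induced RRM2B. RRM2 (ENSG00000171848, chromosome 2) had 99.98 and 93.6 CPM in resistant libraries, against 299 and 179 CPM in untreated libraries. The resistant libraries were alike, the untreated ones differed, and the groups did not overlap. RRM2 fell (log2 fold change −1.30, SE 0.23, adjusted p = 0.00295). Leaving out untreated replicate 1 gave −0.86. RRM2B had 22.3 and 23.9 CPM in resistant libraries, against 35.2 and 38.6 CPM in untreated libraries. It fell as well (log2 fold change −0.68, SE 0.18, adjusted p = 0.0149), but the call was lost without resistant replicate 1 (adjusted p = 0.0599) and without untreated replicate 2 (adjusted p = 0.0650). RRM1 had 95.8 and 133.5 CPM in resistant libraries, against 166 and 153 CPM in untreated libraries. It was not called (log2 fold change −0.47, SE 0.19, adjusted p = 0.0726) and depended on which resistant library was used, with an adjusted p = 0.0142 without resistant replicate 2 and 0.534 without resistant replicate 1. Without a filter on low counts RRM1 was called (adjusted p = 0.0448).

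TYMS, DUT and DTYMK, the 3 members grouped under thymidylate made from deoxyuridine nucleotides, all fell. The thymidine kinases, described with the other nucleoside kinases, were not called. TK1 nevertheless had a log2 fold change of −0.75, close to that of DTYMK. TYMS, thymidylate synthase (ENSG00000176890, chromosome 18), had 104 and 123 CPM in resistant libraries, against 287 and 217 CPM in untreated libraries (log2 fold change −1.15, SE 0.19, adjusted p = 0.00137). DUT, which destroys dUTP and gives the dUMP that TYMS uses, had 21.8 and 27.6 CPM in resistant libraries, against 69.8 and 57.9 CPM in untreated libraries (log2 fold change −1.37, SE 0.19, adjusted p = 5.65e-04). For both TYMS and DUT the groups lay well apart. DTYMK, the kinase that acts on the product of TYMS, had 32.9 and 31.0 CPM in resistant libraries, against 59.8 and 51.0 CPM in untreated libraries. Its log2 fold change was −0.79 (SE 0.17, adjusted p = 0.00537), and the call ended without untreated replicate 1 (adjusted p = 0.0557).

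The 2 members that remove deoxynucleotides fell too, so supply and removal genes were lower together. DCTPP1, which degrades dCTP and its modified forms, had 36.3 and 35.3 CPM in resistant libraries, against 101 and 81.8 CPM in untreated libraries (log2 fold change −1.35, SE 0.17, adjusted p = 3.14e-04). SAMHD1, a hydrolase of all deoxynucleoside triphosphates, had 34.5 and 41.7 CPM in resistant libraries, against 66.9 and 69.5 CPM in untreated libraries (log2 fold change −0.84, SE 0.17, adjusted p = 0.00368). Neither gene's groups overlapped, and neither call depended on a single library.

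The nucleoside kinases, which return nucleosides to the pool, did not move as a block. UCK2, the uridine and cytidine kinase of growing cells, had 75.6 and 77.5 CPM in resistant libraries, against 141 and 112 CPM in untreated libraries. It fell by 0.72 on the log2 scale (SE 0.17, adjusted p = 0.00794), and was not called without untreated replicate 1 (adjusted p = 0.0850). TK1, the cytosolic thymidine kinase of S phase, had 43.9 and 79.1 CPM in resistant libraries, against 114 and 93.6 CPM in untreated libraries. Resistant replicate 2 stood much nearer to the untreated libraries than replicate 1 did, and TK1 was not called (log2 fold change −0.75, SE 0.26, adjusted p = 0.0599). Without resistant replicate 2 its log2 fold change was −1.24, which was called (adjusted p = 1.16e-04). With all 4 libraries it was also called by DESeq2 (adjusted p = 0.0160), by limma-voom (adjusted p = 0.0424) and without a filter on low counts (adjusted p = 3.03e-04). TK2, its mitochondrial counterpart, had 66.4 and 57.8 CPM in resistant libraries, against 38.9 and 50.5 CPM in untreated libraries. The log2 fold change of TK2 was 0.47 (SE 0.18, adjusted p = 0.0632), and it was called only without resistant replicate 2 or untreated replicate 2 (adjusted p = 0.0430 and 0.0343) among the fits that left out a library. With all 4 it was called without a filter (adjusted p = 0.0397) and with a stricter one (adjusted p = 0.0448). DCK, deoxycytidine kinase, was the least abundant of them in CPM, with 15.01 and 13.5 CPM in resistant libraries, against 19.2 and 16.4 CPM in untreated libraries (log2 fold change −0.32, SE 0.21, adjusted p = 0.278).

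In the pyrimidine pathway CAD was level, UMPS and CTPS1 fell, and DHODH and CTPS2 were not called. CAD, which carries the opening reactions, had 281 and 247 CPM in resistant libraries, against 288 and 243 CPM in untreated libraries, so the groups overlapped fully (log2 fold change −0.01, SE 0.17, adjusted p = 0.977). DHODH, the mitochondrial enzyme of the next reaction, had 16.5 and 16.2 CPM in resistant libraries, against 23.9 and 22.5 CPM in untreated libraries, and was not called (log2 fold change −0.50, SE 0.19, adjusted p = 0.0684). UMPS, which completes UMP, had 28.0 and 32.7 CPM in resistant libraries, against 70.0 and 45.9 CPM in untreated libraries. UMPS fell by 0.93 on the log2 scale (SE 0.22, adjusted p = 0.00848), but leaving out untreated replicate 1 gave a log2 fold change of −0.57, which was not called (adjusted p = 0.101). CTPS1, the CTP synthase of dividing cells, had 33.2 and 36.3 CPM in resistant libraries, against 103 and 69.6 CPM in untreated libraries (log2 fold change −1.31, SE 0.20, adjusted p = 0.00111). The related gene CTPS2 had 47.5 and 54.5 CPM in resistant libraries, against 39.6 and 45.1 CPM in untreated libraries, and was not called (log2 fold change 0.27, SE 0.17, adjusted p = 0.243). CTPS1 thus lay well below its untreated level in both resistant libraries while CTPS2 did not.

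PRPP is made by the synthetases PRPS1 and PRPS2. PRPS1 had 68.7 and 80.1 CPM in resistant libraries, against 117 and 107 CPM in untreated libraries. It fell by 0.59 on the log2 scale (SE 0.16, adjusted p = 0.0166), and this call was lost without resistant replicate 1 (adjusted p = 0.149) or untreated replicate 1 (adjusted p = 0.111). PRPS2 had 200.1 and 189.6 CPM in resistant libraries, against 231 and 184 CPM in untreated libraries, with overlap between the groups (log2 fold change −0.09, SE 0.17, adjusted p = 0.707).

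Along the purine pathway to IMP, 2 of the 6 genes fell, where 17.4% of all tested genes did, and 4 were not called. PFAS, which makes the amidine intermediate (ENSG00000178921, chromosome 17), showed the lowest fold change of all 33 members. It had 29.5 and 43.0 CPM in resistant libraries, against 127 and 109 CPM in untreated libraries (log2 fold change −1.70, SE 0.20, adjusted p = 2.54e-04). The level of PFAS in resistant libraries was thus 30.8% of that in untreated ones by the fitted fold change. PAICS, which acts after PFAS, had 235 and 268 CPM in resistant libraries, against 413 and 351 CPM in untreated libraries. The fall of PAICS was 0.60 on the log2 scale (log2 fold change −0.60, SE 0.17, adjusted p = 0.0202), and leaving out resistant replicate 1 (adjusted p = 0.177) ended the call, as did leaving out untreated replicate 1 (adjusted p = 0.167). PPAT, the committed step, has its start next to one of PAICS. It had 43.5 and 42.6 CPM in resistant libraries, against 55.0 and 48.4 CPM in untreated libraries (log2 fold change −0.26, SE 0.16, adjusted p = 0.234). The other 3 were also not called. GART, which carries 3 activities of the pathway, had 262 and 301 CPM in resistant libraries, against 361 and 327 CPM in untreated libraries (adjusted p = 0.206). ADSL, which acts both here and on the way to AMP, had 59.0 and 78.0 CPM in resistant libraries, against 93.4 and 76.0 CPM in untreated libraries (adjusted p = 0.224). ATIC, which closes the ring of IMP, had 207 and 187 CPM in resistant libraries, against 256 and 215 CPM in untreated libraries (adjusted p = 0.259). All 6 fold changes lay below 0, from −1.70 to −0.26 in log2, where 8161 of all 16090 tested genes lay below 0.

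In the guanine nucleotide branch, which turns IMP into GMP, none of the 3 genes was called, as for 10627 of all 16090 tested genes. All 3 fold changes lay above 0, where this held for 7929 of all tested genes. IMPDH1 and IMPDH2 are the rate-limiting dehydrogenases, and GMPS adds the amino group. IMPDH2 had 240.95 and 240.6 CPM in resistant libraries, against 236 and 209 CPM in untreated libraries (log2 fold change 0.11, SE 0.16, adjusted p = 0.623). IMPDH1 had 122 and 101 CPM in resistant libraries, against 99.5 and 79.4 CPM in untreated libraries (log2 fold change 0.32, SE 0.18, adjusted p = 0.186). GMPS had 229 and 215 CPM in resistant libraries, against 206 and 170.4 CPM in untreated libraries (log2 fold change 0.24, SE 0.17, adjusted p = 0.298). In each of the 3 both resistant libraries lay above both untreated ones by a small margin, where both lay above for 34.6% of all tested genes. The purine base salvage enzymes were not called either. HPRT1, which recovers hypoxanthine and guanine, had 77.0 and 90.3 CPM in resistant libraries, against 112 and 93.8 CPM in untreated libraries (log2 fold change −0.30, SE 0.17, adjusted p = 0.194). APRT, which recovers adenine, had 133 and 129 CPM in resistant libraries, against 109.8 and 86.6 CPM in untreated libraries (log2 fold change 0.42, SE 0.17, adjusted p = 0.0796). In cells that keep MTAP, that enzyme supplies APRT with adenine, and MTAP was close to 0 here in both groups.

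NME1, a kinase that converts nucleoside diphosphates to triphosphates, fell. It had 71.6 and 87.9 CPM in resistant libraries, against 221 and 167 CPM in untreated libraries (log2 fold change −1.28, SE 0.19, adjusted p = 8.42e-04). NME2, its neighbour and close relative on chromosome 17, had 599 and 558 CPM in resistant libraries, against 674 and 569 CPM in untreated libraries, and was not called (log2 fold change −0.10, SE 0.17, adjusted p = 0.669). The readthrough gene that joins them lay between 9.66 and 10.6 CPM in all 4 libraries. Of the 2 cytosolic folate enzymes MTHFD1, which supplies the one-carbon units for purines and thymidylate, had 116 and 125 CPM in resistant libraries, against 269 and 235 CPM in untreated libraries (log2 fold change −1.06, SE 0.16, adjusted p = 0.00108). SHMT1, which makes such units from serine, had 72.6 and 71.5 CPM in resistant libraries, against 85.9 and 89.4 CPM in untreated libraries (log2 fold change −0.28, SE 0.15, adjusted p = 0.167). Reads of 8 members (DCK, DCTPP1, GART, MTHFD1, NME1, SHMT1, TYMS and UCK2) may be shared with an overlapping expressed gene, so their values are uncertain to that extent. For DCK and NME1 that gene lies on the same strand. For the others the overlap is on the opposite strand, and the strand setting is not given in the sources used here. Of 41 pseudogenes named after a member, 3 reached 1 CPM in some library, with a highest level of 3.52 CPM.

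Ratios between related genes within a library do not depend on library scaling. They are given per kilobase, with the length of the principal transcript in GENCODE 29 for each gene, since the isoforms behind the counts are not known. CTPS1 stood at 0.942 and 0.899 times CTPS2 in resistant libraries, against 3.51 and 2.08 times in untreated libraries. The form that led the pair in untreated libraries was thus just below the other in resistant ones. TK1 stood at 2.08 and 4.30 times TK2 in resistant libraries, against 9.20 and 5.82 times in untreated libraries. RRM2 stood at 0.936 and 0.629 times RRM1 in resistant libraries, against 1.62 and 1.05 times in untreated libraries, and at 6.45 and 5.63 times RRM2B in resistant libraries, against 12.2 and 6.65 times in untreated libraries. PRPS1 stood at 0.400 and 0.493 times PRPS2 in resistant libraries, against 0.591 and 0.676 times in untreated libraries. For these pairs the groups did not overlap, but for RRM2 with RRM2B the gap was narrow. IMPDH1 stood at 0.289 and 0.239 times IMPDH2 in resistant libraries, against 0.241 and 0.216 times in untreated libraries, with overlap. NME1 stood at 0.110 and 0.145 times NME2 in resistant libraries, against 0.302 and 0.271 times in untreated libraries, with no overlap. An exact permutation test of 2 against 2 libraries cannot give a two-sided p below 0.333, so no such difference could pass. The pairs were picked after values had been seen.

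**Figure D3:**
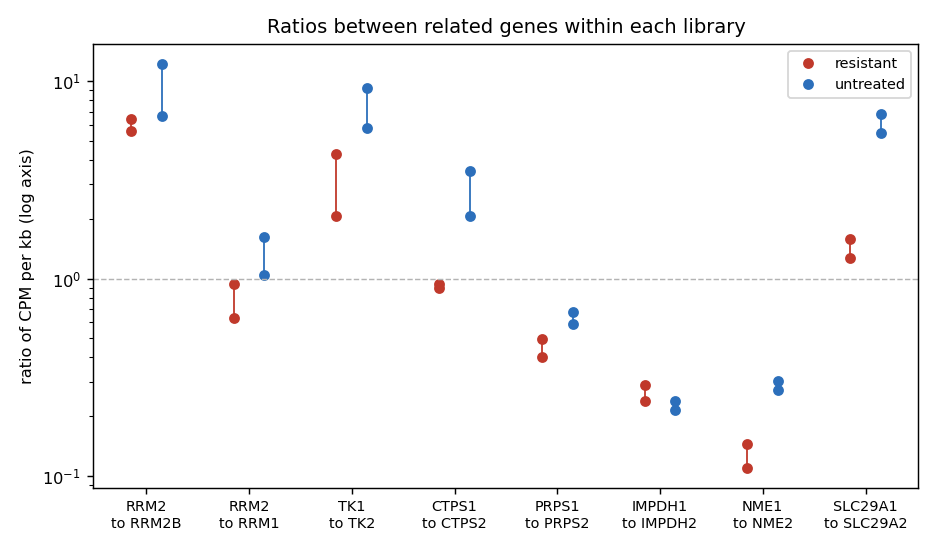
Ratio of CPM per kilobase between related genes in each library, on a log axis, with resistant libraries in red left of untreated ones in blue and a line joining the 2 libraries of a group. The CTPS1 to CTPS2 ratio lies just below 1 in both resistant libraries and above 2 in both untreated ones, and only IMPDH1 to IMPDH2 overlaps between groups.

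Other nucleotide genes from 5 further lists, chosen with earlier results of these data known, moved both ways. They were 68 genes, of which 62 were tested. Of these 20 fell (32.3%, where 17.4% of all tested genes fell), 8 rose (12.9%, where 16.6% of all tested genes rose) and 34 were not called, with a median log2 fold change of −0.27. Fewer of these genes, and fewer of all tested genes, were called without untreated replicate 1 or without resistant replicate 1. Among nucleoside transporters 1 of 5 tested genes fell and 2 rose. SLC29A2, an equilibrative carrier that also takes up bases, had 47.5 and 39.2 CPM in resistant libraries, against 16.6 and 15.97 CPM in untreated libraries (log2 fold change 1.41, SE 0.19, adjusted p = 4.82e-04). SLC29A1, the main equilibrative carrier, had 56.0 and 57.4 CPM in resistant libraries, against 105 and 80.4 CPM in untreated libraries (log2 fold change −0.71, SE 0.17, adjusted p = 0.01004). The carriers thus moved in opposite directions, and their ratio per kilobase was 1.27 and 1.58 in resistant libraries, against 6.84 and 5.44 in untreated libraries. SLC29A1 was not called without untreated replicate 1 (adjusted p = 0.118). SLC29A4, a carrier of monoamines and adenosine, rose to 131 and 95.6 CPM in resistant libraries, against 39.0 and 67.2 CPM in untreated libraries (log2 fold change 1.09, SE 0.27, adjusted p = 0.0176). SLC29A3 (−0.86, adjusted p = 0.0652) and SLC28A1 (−0.08, adjusted p = 0.925) were not called.

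Among genes of nucleotide breakdown and pool cleaning 8 of 19 fell (42.1%), 2 rose (10.5%) and 9 were not called. Of all tested genes 17.4% fell and 16.6% rose. NT5E, the cell-surface enzyme CD73 that makes adenosine from AMP, had 26.3 and 25.2 CPM in resistant libraries, against 363 and 289 CPM in untreated libraries (log2 fold change −3.66, SE 0.19, adjusted p = 9.47e-07). XDH, the oxidase that makes uric acid, was low in both groups and fell to 0.759 and 0.444 CPM in resistant libraries, against 5.50 and 6.57 CPM in untreated libraries (log2 fold change −3.33, SE 0.43, adjusted p = 3.99e-04). NUDT5, a hydrolase of nucleoside diphosphate sugars, fell by 0.73 on the log2 scale (adjusted p = 0.00648). ADA, which deaminates adenosine, rose, with 45.3 and 37.5 CPM in resistant libraries, against 24.4 and 26.9 CPM in untreated libraries (log2 fold change 0.69, SE 0.18, adjusted p = 0.0149). The ADA call ended without resistant replicate 1 (adjusted p = 0.0757) or untreated replicate 1 (adjusted p = 0.0826). DPYD (−0.25, adjusted p = 0.248) and NT5C3B (−0.30, adjusted p = 0.180) were not called.

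Of the 16 folate cycle and transport genes 5 fell (31.25%, where 17.4% of all tested genes fell) and 2 rose (12.5%, where 16.6% rose). The other 9 were not called. SHMT2, the mitochondrial relative of SHMT1, had 116 and 108 CPM in resistant libraries, against 199 and 187 CPM in untreated libraries (log2 fold change −0.79, SE 0.16, adjusted p = 0.00381). MTRR, which keeps methionine synthase active, fell by 1.20 on the log2 scale (SE 0.17, adjusted p = 7.42e-04). SLC19A1, the reduced folate carrier, fell by 0.70 on the log2 scale (adjusted p = 0.0119), but was not called without untreated replicate 1 (adjusted p = 0.139). MTHFD2, the mitochondrial enzyme of tumour cells, was not called (−0.07, SE 0.17, adjusted p = 0.785).

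Among nucleotide kinases 2 of 11 tested genes fell (18.2%, where 17.4% of all tested genes fell) and 1 rose (9.09%, where 16.6% rose). AK4, an adenylate kinase of the mitochondrial matrix, rose to 104 and 127 CPM in resistant libraries, against 72.3 and 65.0 CPM in untreated libraries (log2 fold change 0.75, SE 0.17, adjusted p = 0.00652). NME4, a mitochondrial diphosphate kinase, fell by 0.67 on the log2 scale (adjusted p = 0.0127), a call lost without resistant replicate 2 (adjusted p = 0.0770) or untreated replicate 1 (adjusted p = 0.0907). AK6 was not called (log2 fold change 0.00, adjusted p = 0.988). Of the other salvage and interconversion genes 4 of 11 fell (36.4%) and 1 rose (9.09%), beside the same shares of all tested genes. PRPSAP2, a partner of the PRPP synthetases, fell by 0.70 (SE 0.18, adjusted p = 0.0130), UCKL1 by 0.66 (adjusted p = 0.0231) and GMPR2, which turns GMP back to IMP, by 0.50 (adjusted p = 0.0381), all on the log2 scale. UCK1, the second uridine and cytidine kinase, rose by 0.54 (SE 0.18, adjusted p = 0.0367), whereas UCK2 fell. These 4 calls each ended in at least 1 fit without a library (adjusted p up to 0.0949 for PRPSAP2, 0.122 for UCKL1, 0.159 for GMPR2 and 0.219 for UCK1). ADSS2, the first step from IMP to AMP (−0.43, adjusted p = 0.0613), and PRPSAP1 (0.17, adjusted p = 0.430) were not called.

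**Figure D4:**
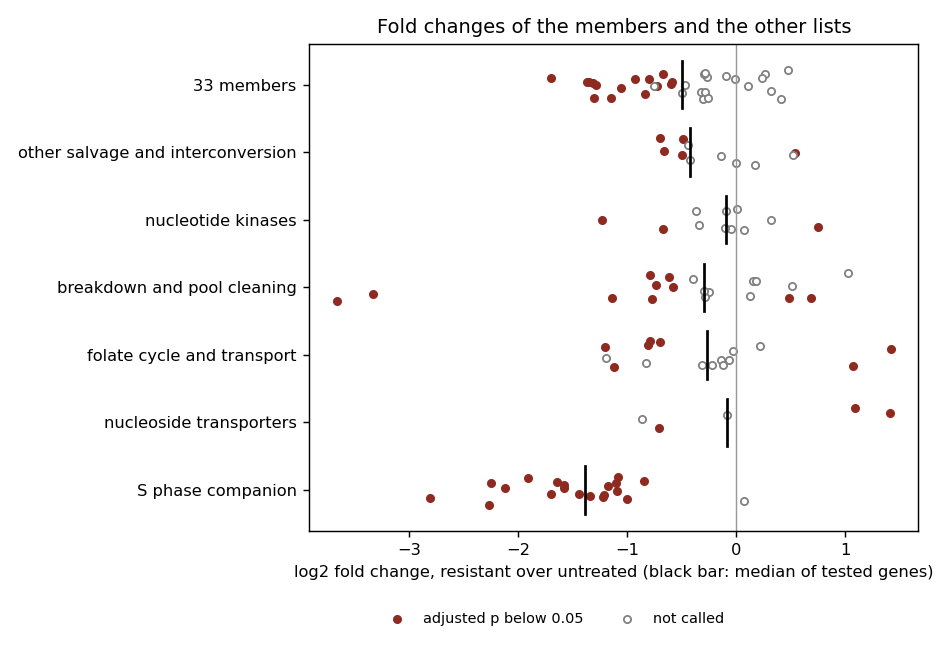
Log2 fold change, resistant over untreated, of each tested gene in the members, the 5 other nucleotide lists and the S phase list, with filled symbols for called genes and a black bar at each median. The members have their median at −0.50 and no called gene right of 0, and the S phase genes have theirs at −1.39.

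A list of 20 S phase genes that are not nucleotide enzymes was set beside the members. It was also chosen with earlier results of these data known. It holds helicase subunits and their loading factors, polymerases, the clamp PCNA and the clamp loader subunit RFC3, the nuclease FEN1, the cyclin CCNE2 and the transcription factor E2F1. Of these 20 genes 19 fell, where 17.4% of all tested genes did, and 0 rose, where 16.6% did. Falls of at least 2-fold numbered 18, where 7.55% of all tested genes fell that far, and 1 gene was not called. The median log2 fold change was −1.39. RFC3, a subunit of the clamp loader, had 18.0 and 25.2 CPM in resistant libraries, against 119 and 87.5 CPM in untreated libraries (log2 fold change −2.25, SE 0.22, adjusted p = 8.90e-05). CDC6, MCM6 and MCM3 fell as well, with log2 fold changes of −2.12, −1.22 and −1.91 (adjusted p = 2.93e-04, 8.34e-04 and 8.89e-04). CDT1 was not called (0.08, adjusted p = 0.750). The S phase list summed to 782 and 1079 CPM in resistant libraries, against 2754 and 2123 CPM in untreated libraries. The 33 members summed to 3222 and 3376 CPM in resistant libraries, against 4914 and 4095 CPM in untreated libraries. In bulk RNA fewer cells in S phase and less RNA per cell cannot be told apart, and the part of the cell cycle in the members' falls was not tested.

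Libraries of 1 group differed in these genes as well. Untreated replicate 1 lay above untreated replicate 2 in 28 of the 33 members (84.8%) and in 19 of the 20 S phase genes, where this held for 49.3% of all tested genes. Resistant replicate 1 lay below resistant replicate 2 in 18 of the 33 members (54.5%) and in 18 of the 20 S phase genes, where this held for 50.7% of all tested genes. The members with the widest gap between the resistant libraries were TK1, PFAS, RRM1 and ADSL, all lower in replicate 1, with log2 differences of −0.84, −0.54, −0.48 and −0.40. RRM2, UMPS and CTPS1 had the widest gaps between the untreated libraries, at 0.74, 0.60 and 0.56 in log2, and were higher in replicate 1. Without untreated replicate 1 DTYMK, UCK2, UMPS, PRPS1 and PAICS were not called, with log2 fold changes of −0.65, −0.53, −0.57, −0.50 and −0.46. With all 4 libraries these were −0.79, −0.72, −0.93, −0.59 and −0.60. Fewer of all tested genes were called in that fit too. The 9 members CTPS1, DCTPP1, DUT, MTHFD1, NME1, PFAS, RRM2, SAMHD1 and TYMS were called in each of the 12 refits, which are listed with the processing.

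**Figure D5:**
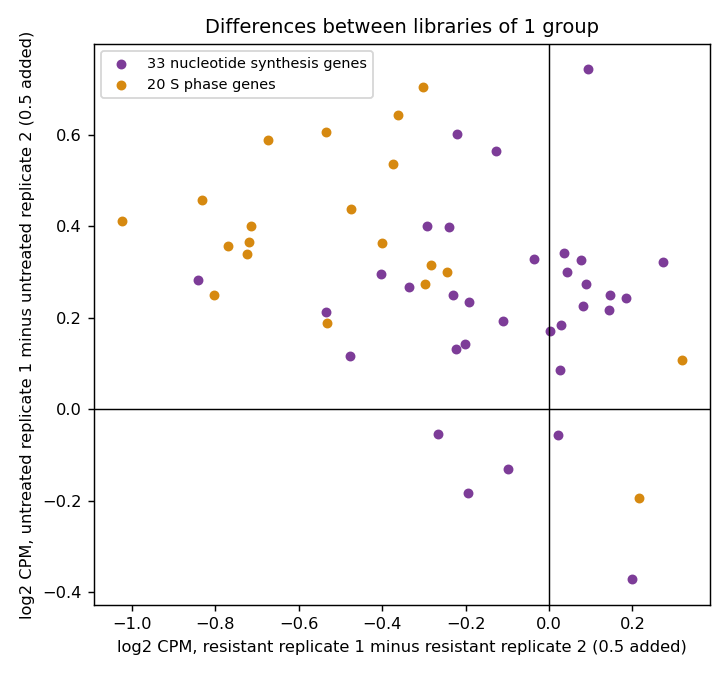
Log2 difference in CPM between the resistant libraries (horizontal) and between the untreated libraries (vertical), replicate 1 minus replicate 2 after adding 0.5 CPM, for the 33 members in purple and the 20 S phase genes in orange. Most S phase genes lie at the upper left, lower in resistant replicate 1 and higher in untreated replicate 1, while the members spread around 0 along the horizontal axis and mostly lie above 0 on the vertical one.

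Median fold changes also differed between chromosomes, over protein-coding genes other than the members. The median log2 fold change was 0.46 on chromosome 22, which holds ADSL, and 0.42 on chromosome 11, which holds RRM1. It was −0.36 on chromosome 20, which holds SAMHD1, and SAMHD1 differed from that by −0.48. On the chromosomes of the other 14 members that fell it lay between −0.20 and 0.15. Relative to its chromosome, ADSL had a difference of −0.77 and RRM1 one of −0.89. The part of these chromosome-wide differences in the members' values was not tested.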

How the data were processed

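The authors deposited 1 table of unscaled expected counts for each library (column name per the file headers). The submitters' processing notes list STAR 2.7.2b, RSEM 1.3.1 and GRCh37, with no roles. Of all values 93.6% were whole numbers, and they were rounded for the tests. Symbols came from a gene name table (39538 of 57773 IDs named), and GENCODE 29, of another build, gave chromosomes, overlaps and lengths only.

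Genes were kept with edgeR's filterByExpr and scaled by TMM (factors 0.962 to 1.05). Groups came from the titles. Their test was the robust quasi-likelihood F-test of edgeR 4.0.16 (R 4.3.3), adjusted by Benjamini-Hochberg over all tested genes. Fold changes are resistant over untreated, on log2, and the SE is their size over the square root of F. Replicates were distinct (chi-square per degree of freedom of 49.0 in resistant and 38.3 in untreated pairs). The refits used RLE and upper-quartile scaling, no filter, 1 CPM in 2 libraries, a replicate block, each library left out (a lone library is assumed to vary like the others), DESeq2 1.42.0, limma-voom 3.58.1 and a newer quasi-likelihood form. A threshold of 0.01 was also tried.

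Members and lists were chosen with earlier results of these data known. Beyond the members, each list was named by its called genes lowest in adjusted p (at most 4) and its most abundant uncalled genes (at most 2). A few genes that this rule selects are not reported here. MTAP, CDKN2A and markers come from fixed lists. The fitting code was tested on simulated counts with the same spread for all genes and few changed genes. It called 4% of 1.5-fold, 34.7% of 2-fold, 95.8% of 4-fold and 100% of 8-fold changes. Of 121 calls 6 were false. Lengths are those of the longest APPRIS principal transcript.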

Additional observations from a re-analysis of the deposited data

How the results depend on the processing

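Of the 15 falls among the members, 15 were kept under RLE and upper-quartile scaling, no filter, the stricter filter, the replicate block, DESeq2, limma-voom and the newer quasi-likelihood form. The falls then numbered 16 with DESeq2 and limma-voom (TK1 added) and 17 without a filter (RRM1 and TK1 added). The count of members that fell ranged from 10 to 17 when a library was left out and was 12 at a threshold of 0.01. The count of members that rose was 1 with upper-quartile scaling (APRT), 1 without a filter (TK2) and 1 with the stricter filter (TK2), and 0 to 1 when a library was left out. For the other nucleotide genes the falls numbered 6 to 19 and the rises 4 to 7 when a library was left out, and 6 and 3 at a threshold of 0.01. All genes called numbered 2832 to 5041 when a library was left out, and 2832 at a threshold of 0.01, of which 2424 were shared between that threshold and the fit without untreated replicate 1. The replicate block left 15 members that fell, 0 that rose, 19 and 8 of the other nucleotide genes and 5275 genes in all. The deviations of same-numbered libraries had a correlation of −0.06 over tested genes, so the numbers gave no sign of pairing, and the block changed no member's call. The median of all genes moved by 0.01 under RLE and 0.03 under upper-quartile scaling.

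The log2 fold change of CAD changed sign, at 0.0043 under RLE, 0.020 under upper-quartile scaling, 0.023 with the stricter filter and 0.0043 with DESeq2, and it ranged from −0.14 to 0.14 when a library was left out. That of PRPS2 ranged from −0.26 to 0.10, of NME2 from −0.23 to 0.047, of AK6 from −0.15 to 0.19, of MTHFD2 from −0.21 to 0.070, of SLC28A1 from −0.57 to 0.71 and of CDT1 from −0.020 to 0.18 when a library was left out. SLC28A1 stood at 0.036 with the replicate block and 0.062 with limma-voom. The cause was not tested. Of the 396 member values from the 12 refits, 369 kept direction and side of the threshold, 9 lost a call, 11 gained one and 7 changed sign. Of the 396 values of the other named genes these numbers were 368, 17, 2 and 9. With 2 libraries a group, an uncalled gene may still differ.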
